A study of Mus musculus with 19 samples.

Results

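Keratins are the intermediate filament proteins of epithelia, and the genes described here are the classical markers of simple epithelium (Krt8, Krt18 and Krt19) and of the basal layer of stratified epithelium (Krt5, Krt14, Krt15 and Krt17). All 7 genes were taken by name, with earlier results of these data known, out of 18193 genes with a probe set of their own on the array. Where several probe sets named a gene and no other, the brightest on average over the 19 arrays stands for it. Genes brighter than the median of all values on 3 or more arrays were tested, 13320 in number, and all 7 keratins were among them. Krt17 passed that filter through the 3 tooth germ arrays alone, so its difference in the tooth was a condition of its being tested. It is therefore described by its levels and left out of the counts and medians below, which cover the other 6 keratins. Counts of alternative values near the end include it where stated.

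The study profiled embryos of wild-type ICR mice on Affymetrix arrays to find genes enriched in the developing lens. Lens of 3 stages (E10.5, then E11.5, then E12.5, in days of gestation with the plug at E0.5) has 3 arrays per stage and was set against 4 arrays of whole embryonic body labelled E10.5-12.5. Tooth germ at E13.5 (3 arrays) was set against 3 arrays of whole body labelled E11.5-13.5. No group carries a mutation or a treatment, and nothing states that the arrays of a group came from separate litters, so the p-values measure only the spread between these arrays. The body arrays are mixtures of all tissues and stages of their range. In such bulk tissue, fewer cells of a type and less RNA per cell cannot be told apart.

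A keratin filament is built from pairs of one type I and one type II protein. Krt8 (type II) pairs with Krt18 or Krt19 (type I) in single-layered epithelia and in the early embryo, and Krt5 (type II) pairs with Krt14 or Krt15 (type I) in the basal cells of epidermis and oral epithelium. Krt17 is a type I keratin of embryonic ectoderm and its appendages. The lens forms from the surface ectoderm of the head, and its fibre cells fill with vimentin and the beaded filament proteins Bfsp1 and Bfsp2. The tooth germ holds an epithelium derived from oral ectoderm and a mesenchyme beneath it.

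The genes lie in 2 clusters of the mouse genome (RefSeq annotation of assembly GRCm38.p6). Krt5 (chr15:101707069-101712905), Krt8 (chr15:101996711-102004342) and Krt18 (chr15:102028216-102032026) lie on chromosome 15. Krt8 and Krt18, the type II and the type I gene of the simple pair, start 23.9 kb apart and are read in opposite directions, with 2 genes between them. Krt15 (chr11:100131759-100135949), Krt19 (chr11:100140810-100145926), Krt14 (chr11:100203162-100207510) and Krt17 (chr11:100256215-100261029) lie within 129 kb of chromosome 11. Krt19, a simple keratin by its use in epithelia, therefore sits among basal keratin genes.

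The 100 bases before the annotated start of Krt8, Krt18 and Krt5 are shown because Krt8 and Krt18 had similar patterns across the arrays while Krt5, on the same chromosome, did not. They come from RefSeq promoters of GRCm38.p6 and are written 5′ to 3′ on the strand of the gene. Capitals mark letters that belong to a match of a searched motif.
Krt8, chr15:102004343-102004442, minus strand: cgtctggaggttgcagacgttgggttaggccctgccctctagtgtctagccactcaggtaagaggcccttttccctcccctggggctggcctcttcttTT
Krt18, chr15:102028116-102028215, plus strand: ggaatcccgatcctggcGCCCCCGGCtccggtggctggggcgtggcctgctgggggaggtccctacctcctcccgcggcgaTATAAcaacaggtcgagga
Krt5, chr15:101712906-101713005, minus strand: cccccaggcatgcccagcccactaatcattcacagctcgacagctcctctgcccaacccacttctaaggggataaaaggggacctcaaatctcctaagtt

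The motifs searched on both strands, in windows of 300 bases, were the TATA letters TATAA, the AP-2 letters GCCNNNGGC, the Sp1 letters GGGCGG and the AP-1 letters TGANTCA. Of 32851 promoters, 24.9% hold the TATA letters, 16.6% those of AP-2, 35.7% those of Sp1 and 7.81% those of AP-1. The Krt18 window holds the AP-2 letters from 83 to 75 bases before the start and the TATA letters from 19 to 15 bases before it. In Krt8 the TATA letters run across the annotated start itself, once on each strand and overlapping, so that only their first letters fall within the bases shown. None of the 4 motifs was found in the Krt5 window. These are matches of letters and say nothing of which factor binds.

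Levels are log2 signals, and differences between groups are log2 differences with the standard error (SE) of a limma fit over all 19 arrays. A gene was called where its Benjamini-Hochberg adjusted p over the 13320 genes was under 0.05 in a two-sided test. Signals of different probe sets are not comparable, so each keratin is compared only with itself. As a measure of no signal, 27 controls for sequences absent from mouse RNA had a 95th percentile of 4.71, called the no-target level. Array pairs within a group correlated at 0.964 to 0.995 over all probe sets. All 7 listed lens markers, 1 of them tested through lens arrays alone, were called higher than in the body at each lens stage. In the tooth germ 5 of 6 dental mesenchyme markers and 2 of 4 tested markers of dental and oral epithelium were called higher than in the body, and none of either lower.

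The arrays differ technically in 2 ways that touch the values below. The gap between the 3′ and 5′ control probes of beta-actin was 0.21 to 0.48 in the lens series and 4.22 to 5.05 in the tooth series, so a level set across the series carries that gap. The bacterial spike-in controls divide the lens series into a set with high signal (6 arrays: E10.5 replicates 1 and 2, E11.5 replicate 1, E12.5 replicate 1 and body replicates 2 and 3) and a set with low signal (the other 7 arrays). In the tooth series the spike-in signal was higher on all 3 tooth arrays than on the 3 body arrays, so spike-in signal and tissue cannot be told apart there.

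**Figure D1:**
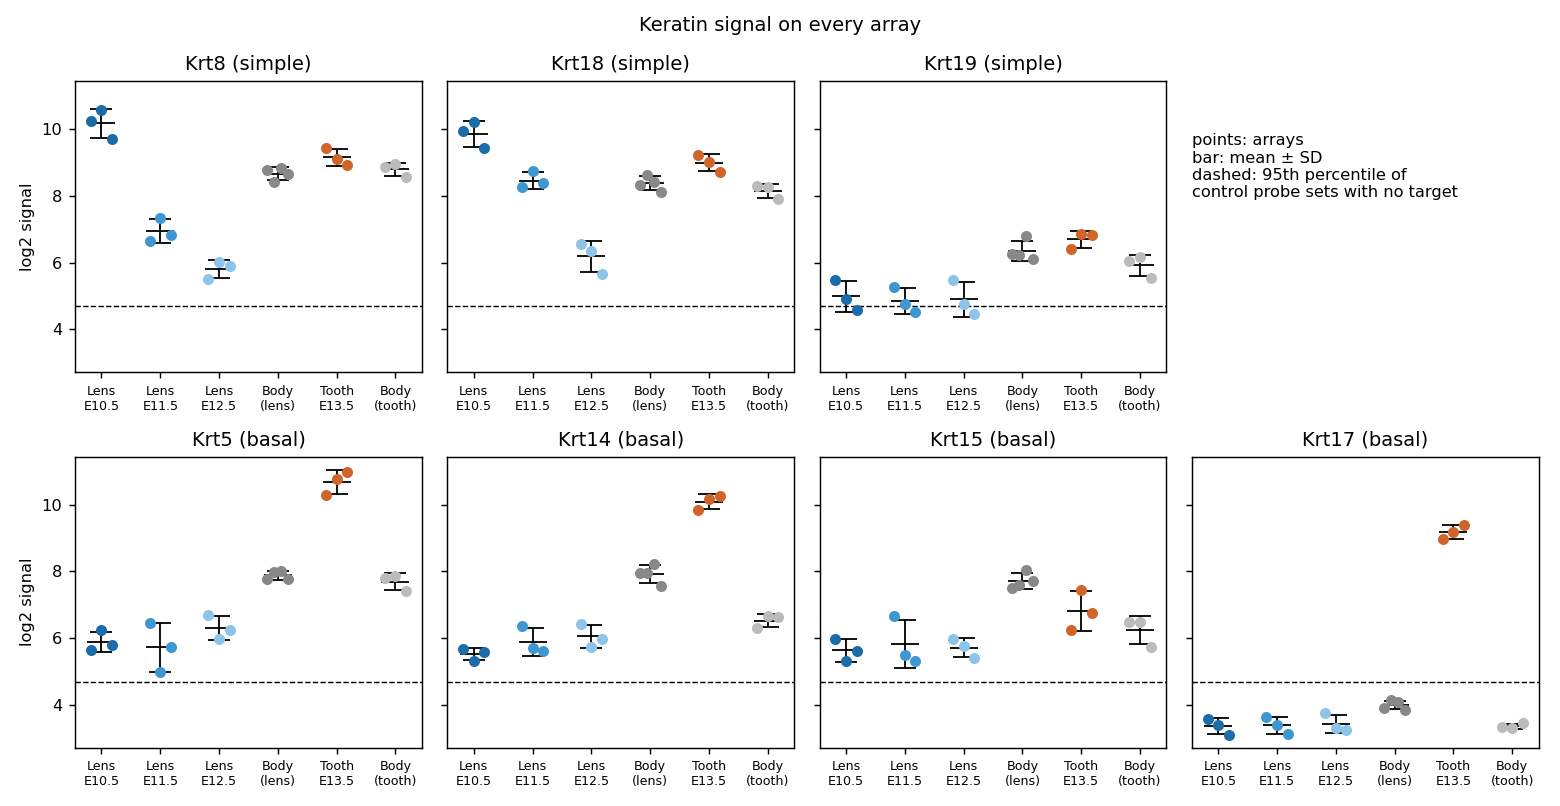
Log2 signal of the main probe set of each of the 7 keratins (vertical axis) on every array, by group (horizontal axis); points are arrays, bars are the mean and SD, and the dashed line is the no-target level (4.71). Krt8 and Krt18 are highest in lens at E10.5 and lowest at E12.5, while Krt5, Krt14 and Krt17 are highest in the tooth germ.

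At E10.5, when the lens pit has just formed from surface ectoderm, the simple pair Krt8 and Krt18 stood above the whole body and the basal keratins below it. Krt8 and Krt18 were called higher in lens, by 2.84-fold and 2.79-fold, and the basal keratins Krt5, Krt14 and Krt15 were called lower. Krt19 did not go with its class and was called lower in lens too. In all, 2 of 3 simple keratins were called higher and 1 lower, and 3 of 3 basal keratins lower, against 13.5% of all genes tested called higher and 19.1% lower. The median difference was 1.48 over the simple and -2.07 over the basal keratins, beside -0.01 over all genes.

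Krt8, the type II keratin of the simple pair, had levels of 10.25, 10.56 and 9.71 in E10.5 lens. In the lens-series bodies it read 8.78, 8.40, 8.82 and 8.66. Every lens array at E10.5 lay above every body array, a separation that 40.4% of all genes showed in either direction. The difference was 1.5 ± 0.21 (SE, adjusted p = 9.3e-06, limma). Its 2 other probe sets gave 1.35 and 1.08.

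Krt18, the type I partner of Krt8, had levels of 9.93, 10.19 and 9.42 in E10.5 lens. Its body levels were 8.31, 8.62, 8.43 and 8.12. The groups again did not overlap, and the difference was 1.48 ± 0.22 (SE, adjusted p = 1.9e-05, limma). For both genes E10.5 replicate 3 was the lowest of the 3 lens arrays. Without that array the differences were 1.74 for Krt8 and 1.69 for Krt18, and within the low spike-in set, where it is the only E10.5 array, they were 0.98 and 1.20, still called.

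Krt19, the simple keratin that lacks most of the tail domain of its relatives, had levels of 5.49, 4.91 and 4.58 in E10.5 lens. One day later it read 5.28, 4.75 and 4.54, and E12.5 arrays read 5.47, 4.77 and 4.46. At each stage 1 of 3 arrays was below the no-target level of 4.71, so lens signal of Krt19 was at the limit of detection throughout. The body arrays read 6.27, 6.23, 6.78 and 6.10, above every lens array, and the differences from them were -1.35 ± 0.26, -1.49 ± 0.26 and -1.45 ± 0.26 (SE) at the 3 stages, all called lower. The highest Krt19 array of each stage was a high spike-in array, and the part of that in its spread was not tested. Krt19 was called lower than in the body at each stage within both spike-in sets.

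Among the basal keratins, Krt5, the type II partner of Krt14, had levels of 5.66, 6.24 and 5.79 in E10.5 lens. The E11.5 arrays read 6.45, 4.98 and 5.75, and the E12.5 arrays 6.71, 5.97 and 6.25. The 4 body arrays spanned 7.77 to 8.0. No lens array of any stage reached a body array, a separation shown by 40.4%, 38.3% and 49.1% of all genes at the 3 stages. The difference was -1.99 ± 0.27 at E10.5 (SE, adjusted p = 6.5e-06, limma), and -2.16 and -1.57 at the later stages.

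Krt14, the type I partner, read 5.67, 5.32 and 5.60 in E10.5 lens. The later arrays read 6.38, 5.71 and 5.61 (E11.5), then 6.44, 5.75 and 5.98 (E12.5). Its body levels were 7.94, 7.95, 8.23 and 7.56, again above all 9 lens arrays. The difference at E10.5 was -2.39 ± 0.20 (SE, adjusted p = 1.6e-08, limma), or 5.24-fold lower in lens. The main Krt14 probe set is of a kind (_x_at) whose probes can also match related genes. A further Krt14 probe set was above the no-target level on all 4 body arrays and below it on all E10.5 lens arrays. The remaining one was below that level on all 9 lens arrays and all 4 bodies, so it gives no comparison there.

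Krt15, a type I keratin of basal cells, read 5.99, 5.31 and 5.63 in E10.5 lens against 7.49, 7.60, 8.04 and 7.71 in the body, a difference of -2.07 ± 0.31 (SE, adjusted p = 2.2e-05, limma). The later stages gave 6.66, 5.50 and 5.32, then 5.98, 5.76 and 5.41. The array at 6.66 is the only E11.5 array of the high spike-in set, and within that set the E11.5 difference was -1.16 and not called (adjusted p = 0.052, the highest over its alternatives, the lowest being 1.4e-08), against -1.88 ± 0.31 with all arrays (limma). Krt17 stayed below the no-target level on every lens array (3.12 to 3.75) and every lens-series body array (3.87 to 4.15). No difference between them is given, since neither side had a measured target.

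At E11.5 and E12.5 the simple keratins joined the basal ones below the body. At E11.5, 2 of 3 simple keratins (Krt8 and Krt19) and 3 of 3 basal keratins were called lower, against 22.3% of all genes. Krt18 was the exception, with a difference from the body of 0.08 ± 0.22 (SE, adjusted p = 0.80, limma). At E12.5 all 6 were called lower, against 26.7% of all genes. The median difference at E12.5 was -2.19 over the simple and -1.86 over the basal keratins, beside -0.05 over all genes. The 3 lens stages share the 4 body arrays, so these counts are not independent.

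**Figure D2:**
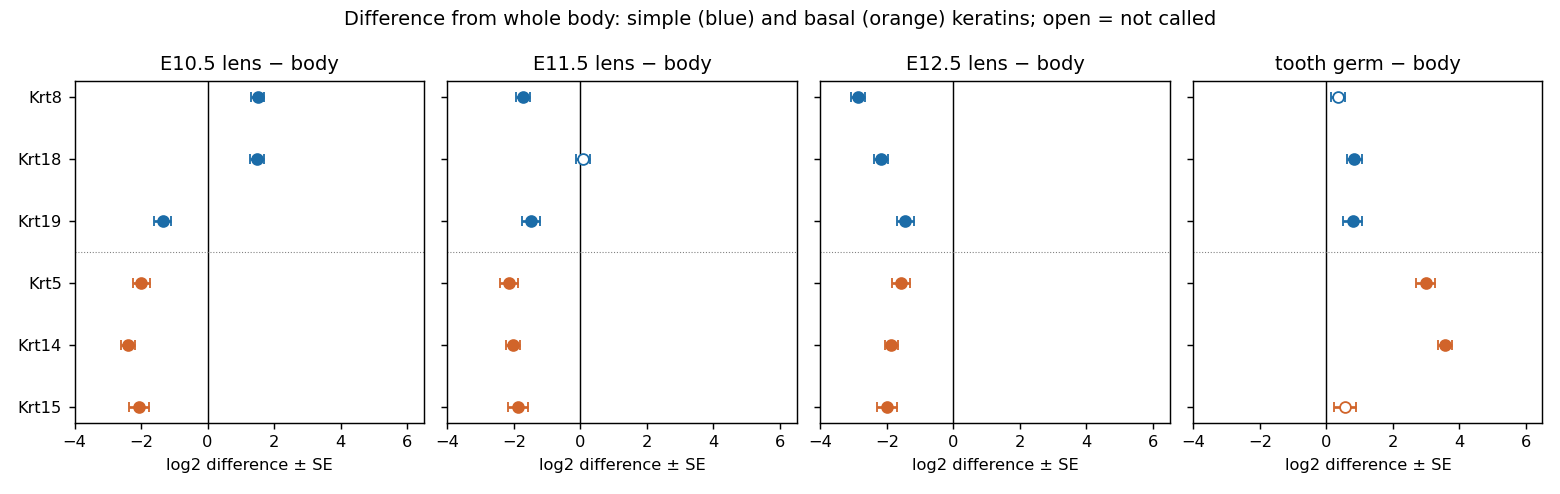
Log2 difference from whole body with its SE (horizontal axis) for 6 keratins (vertical axis; simple in blue, basal in orange) at the 3 lens stages and in the tooth germ; open points were not called, and Krt17 is not drawn because its body signal was below the no-target level. Krt8 and Krt18 lie right of 0 at E10.5 and left of it at E12.5, and the basal keratins lie left of 0 in lens and right of it in the tooth germ, where Krt15 was not called.

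Within the lens, Krt8 and Krt18 were the only 2 of the 6 keratins called between stages. Both fell from E10.5 to E12.5, Krt8 by 4.37 and Krt18 by 3.66 on the log2 scale, or 20.6-fold and 12.7-fold. Counted from the largest fall, Krt8 was 7th and Krt18 10th of 13320 genes. None of Krt5, Krt14, Krt15 and Krt19 was called between any 2 lens stages, in comparisons that called 4.26% (first step), 6.46% (second step) and 22.1% (whole course) of all genes. Exceptions among the alternatives were Krt14, called higher at the later stage in the whole course with the spike-in set as a block and, within the high set, in the first step and the whole course, and Krt5, called higher in the second step without E11.5 replicate 1. Over the whole course, 2 of 3 simple keratins were called lower and 0 of 3 basal keratins were called, against 13.2% of all genes called lower. The median difference was -3.66 over the simple and 0.41 over the basal keratins, beside -0.01 over all genes.

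Krt8 fell mainly in the first day. From 10.25, 10.56 and 9.71 at E10.5 it went to 6.64, 7.34 and 6.83, and E12.5 arrays read 5.50, 6.01 and 5.90, with no overlap between neighbouring stages, as for 17.5% of all genes in the first step and 19.1% in the second. The first step was -3.23 ± 0.22 (SE, adjusted p = 3.0e-08, limma), the 5th largest fall of all genes, and the second was -1.13 ± 0.22 (adjusted p = 0.0035, limma). The other 2 Krt8 probe sets gave -3.0 and -2.73 for the first step. All Krt8 lens arrays stayed above the no-target level, also at E12.5.

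Krt18 stood at 9.93, 10.19 and 9.42 at E10.5, at 8.25, 8.74 and 8.37 a day later and finally at 6.55, 6.33 and 5.67. Its neighbouring stages did not overlap either. The first step was -1.39 ± 0.23 (SE, adjusted p = 0.0012, limma) and the second -2.27 ± 0.23 (adjusted p = 1.2e-05, limma), the 6th largest fall of all genes between those stages. At E11.5 the partners stood apart relative to the body, with Krt8 3.31-fold below it and Krt18 overlapping the body arrays. Each step called 2 of the 6 keratins, Krt8 and Krt18, both lower, against 2.74% of all genes in the first step and 3.45% in the second.

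The 2 steps were compared within each gene. For Krt8 the second step minus the first was 2.10 ± 0.38 (SE, adjusted p = 0.016, limma), a smaller fall in the second day, in a contrast that called 0.45% of all genes. For Krt18 the same quantity was -0.88 ± 0.40 and was not called (adjusted p = 0.67, limma). Whether Krt8 and Krt18 differ from each other in this was not tested. The Krt8 call was lost without E11.5 replicate 1 (1.80, adjusted p = 0.070) or replicate 3 (1.99, adjusted p = 0.10), within the low spike-in set (1.5, adjusted p = 0.16), with 1 of its other probe sets (1.79, adjusted p = 0.092) and in a fit of the lens arrays alone (adjusted p = 0.26). Over its alternatives the adjusted p ran from 7.0e-05 to 0.26.

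The direction of both falls held in each spike-in set, though not every step stayed called. The E12.5 minus E10.5 difference was -4.91 for Krt8 within the high and -3.75 within the low set, and -3.51 and -3.42 for Krt18. The first step of Krt18 was -1.81 within the high set and -0.86, not called (adjusted p = 0.31, limma), within the low set. Over the alternatives its adjusted p ran from 4.6e-05 to 0.31, and that of the second step of Krt8 from 0.00017 to 0.075. In fits of only the arrays of the 2 stages compared, the first step of Krt18 (adjusted p = 0.063) and the second of Krt8 (adjusted p = 0.075) were not called. With the replicate number as a block, the second step stayed called for both (Krt8 adjusted p = 0.0056, Krt18 adjusted p = 9.1e-06, limma). Between E11.5 and E12.5 arrays of the same number are also of the same spike-in set.

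Markers of the surface ectoderm were also lower at the later lens stages. Of 8 surface ectoderm markers, 4 stood above and 3 below the body among the calls at E10.5, against 13.5% and 19.1% of all genes. From E10.5 to E12.5, 5 of 8 were called lower, against 13.2% of all genes, and none higher. Their mean level was 7.49 to 7.68 on the E10.5 lens arrays, 6.05 to 6.15 at E11.5 and 5.49 to 5.61 at E12.5, with 1, 3 and 4 of the 8 below the no-target level on every array of the stage. Epcam, an adhesion protein of simple epithelia, differed by -3.0 ± 0.16 in the first step and -1.77 ± 0.16 in the second (SE, both called lower). Cdh1 (E-cadherin), by contrast, remained 2.98 ± 0.16 above the body at E12.5, after a fall of 1.04 ± 0.18 from E10.5. What part ectoderm outside the lens, dissected with it, had in the Krt8 and Krt18 levels was not tested.

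**Figure D3:**
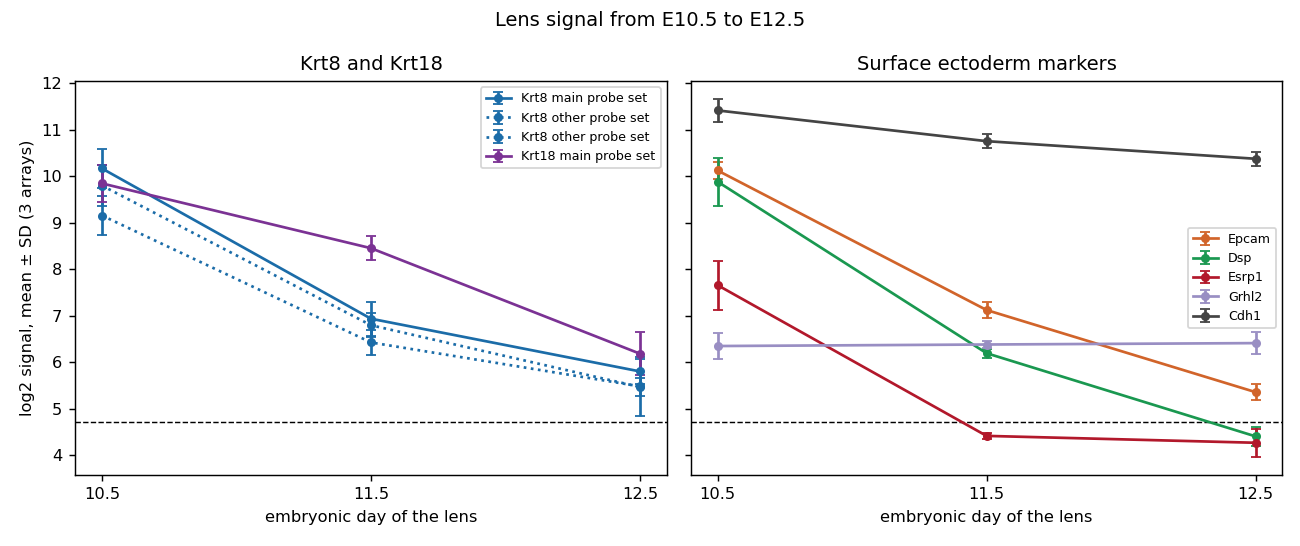
Log2 signal (vertical axis; mean and SD of 3 arrays) against embryonic day of the lens (horizontal axis) for all probe sets of Krt8 and Krt18 (left; dotted, other probe sets) and for 5 of the 8 surface ectoderm markers (right); the dashed line is the no-target level of 4.71. Trp63, Grhl3 and Wnt6 are not drawn. Of these, Trp63 and Grhl3 had lower means in E10.5 lens (5.19 and 4.12) than in the body (6.39 and 4.98). Krt8, Epcam and Dsp descend at both steps, while Cdh1 stays high.

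Markers of other keratin-rich tissues were not called above the body in E10.5 lens, namely 0 of 3 tested mesothelium markers, 0 of 5 of gut and other endoderm, 0 of 4 of periderm and 0 of 5 of liver, against 13.5% of all genes. Lists this short would hold few calls at that share, and the body itself contains these tissues. The counts therefore cannot show that such cells were absent from the lens arrays. Of the tested markers, 2 of mesothelium, 2 of endoderm and 1 of liver had passed the filter through the body arrays alone. Mean levels on the E10.5 lens arrays were 4.13 to 4.28 for mesothelium, with 4 of its 5 markers below the no-target level on every array, and 5.09 to 5.21 for periderm, against 4.91 to 5.24 and 5.80 to 5.98 in the body.

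In the tooth germ Krt5 and Krt14 stood above the body. Both were among the largest differences of all genes, while the simple keratins differed by less. Of the basal keratins 2 of 3 (Krt5 and Krt14) were called higher and of the simple ones 2 of 3 (Krt18 and Krt19), against 16.6% of all genes called higher and 25.3% called lower, and none of the 6 was called lower. The median difference was 2.98 over the basal and 0.79 over the simple keratins, beside -0.04 over all genes. Counted from the largest rise, Krt14 was 5th and Krt5 20th of 13320 genes.

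Krt5 read 10.28, 10.76 and 10.99 in the tooth germ and 7.81, 7.86 and 7.40 in its bodies. The difference was 2.98 ± 0.28 (SE, adjusted p = 1.2e-07, limma), or 7.91-fold. Krt14 read 9.84, 10.17 and 10.27 against 6.29, 6.66 and 6.63, a difference of 3.56 ± 0.22 (SE, adjusted p = 3.3e-10, limma) or 11.8-fold. For both genes of the basal pair the tooth arrays lay above all body arrays, a separation that 56.1% of all genes showed in either direction. The other 2 Krt14 probe sets read 7.45 to 8.22 and 5.57 to 5.80 in the tooth germ, against 4.33 to 4.47 and 4.45 to 4.74, around the no-target level, in the bodies.

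Krt17 read 8.98, 9.18 and 9.40 in the tooth germ and 3.34, 3.32 and 3.46 in the bodies, where it was below the no-target level. Against that level the tooth signal was at least 22.4-fold higher, given as a description with no test. The bodies of the lens series and all lens arrays were also below that level, so the tooth germ was the only group of the 6 with a measured Krt17 signal. A second Krt17 probe set, too dim to be tested, read 5.09 to 5.35 in the tooth germ and was below that level on all other arrays. Krt15 read 6.23, 7.43 and 6.77 in the tooth germ and 6.48, 6.49 and 5.75 in the bodies. These groups overlapped, and the difference of 0.57 ± 0.33 was not called (SE, adjusted p = 0.17, limma).

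Of the simple keratins, Krt18 read 9.23, 9.0 and 8.72 in the tooth germ against 8.28, 8.25 and 7.91, a difference of 0.84 ± 0.23 (SE, adjusted p = 0.0067, limma). Krt8 read 9.42, 9.09 and 8.93 against 8.87, 8.94 and 8.57. Krt8 overlapped between the groups and was not called, at 0.35 ± 0.22 (SE, adjusted p = 0.21, limma), but it was called where each array was centred on its median (0.51, adjusted p = 0.049, within a range up to 0.74 over its alternatives). Krt19 read 6.41, 6.86 and 6.84 against 6.04, 6.16 and 5.55, a difference of 0.79 ± 0.28 (SE, adjusted p = 0.028, limma). That call was lost without tooth replicate 2 (0.71, adjusted p = 0.088), tooth replicate 3 (0.72, adjusted p = 0.084) or body replicate 3 (0.60, adjusted p = 0.13), in a range of 0.0086 to 0.13 over its alternatives.

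The difference from the body was then set between the tissues, lens minus tooth. For the basal keratins it was called lower in lens for 3 of 3 genes at both E10.5 and E12.5, where 16.1% and 20.4% of all genes were called lower. At E10.5 it was -4.97 ± 0.39 for Krt5, -5.95 ± 0.30 for Krt14 and -2.64 ± 0.45 for Krt15 (SE).

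Among the simple keratins the E10.5 lens exceeded the tooth germ for Krt8, at 1.15 ± 0.30 (SE, adjusted p = 0.0063, limma), where 18.4% of all genes were called higher. For Krt18 the value was 0.64 ± 0.32 and was not called (SE, adjusted p = 0.13, limma), although it was called without E10.5 replicate 3 (0.86, adjusted p = 0.043) and with array weights (0.83, adjusted p = 0.022), in a range up to 0.47. The Krt8 call was lost within the low spike-in set (0.63, adjusted p = 0.14) and with 1 of its other probe sets (0.63, adjusted p = 0.17), the lowest over its alternatives being 0.00042. Krt19 was lower in lens, at -2.14 ± 0.38 (SE, adjusted p = 0.00022, limma). At E12.5 all 3 simple keratins were lower in lens than in tooth, Krt8 at -3.22, Krt18 at -3.02 and Krt19 at -2.23.

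Ordered by mean level, Krt8 stood highest in E10.5 lens, then tooth germ, both bodies, E11.5 lens and E12.5 lens. Tooth germ and the bodies overlapped in that order and the other neighbours did not. Krt18 ran from E10.5 lens to E12.5 lens with the other 4 groups between them, each of which overlapped the next of the 4. Krt5, Krt14 and Krt17 were highest in tooth germ with no overlap with the next group, the lens-series bodies. Krt15 alone was highest in the lens-series bodies, which did not overlap with tooth germ. Krt19 was highest in tooth germ, which overlapped the lens-series bodies, and these in turn overlapped the tooth-series bodies, and the 3 lens stages overlapped at the bottom.

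The 2 sets of bodies, which differ in stage range as well as in series, differed for 2 of the 6 keratins. Krt14 and Krt15 were called lower in the tooth-series bodies, against 31.8% of all genes called lower in that comparison. The difference, tooth-series minus lens-series, was -1.39 ± 0.20 for Krt14 and -1.47 ± 0.31 for Krt15 (SE). The other Krt14 probe sets disagreed, at -2.28 and 0.48. The latter was called in the other direction (adjusted p = 0.013, limma), from signals below or around the no-target level in both sets of bodies. The part of the 3′ to 5′ gap in this was not tested, and series and stage range cannot be told apart.

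Across arrays Krt8 and Krt18 were most like each other, and Krt19 was closer to the basal keratins than to either. Over the 19 arrays Pearson's r was 0.86 between Krt8 and Krt18, and 0.953 between Krt5 and Krt14. Krt19 had an r of 0.868 with Krt5, 0.862 with Krt14 and 0.831 with Krt15, but 0.42 with Krt8 and 0.248 with Krt18. The basal keratins were not uniform over the 19 arrays, since r was 0.585 between Krt15 and Krt5 and 0.662 between Krt15 and Krt14. With Krt17, which was measured in the tooth germ alone, Krt15 had an r of 0.32. In the lens series alone Krt15 had an r of 0.905 with Krt5 and 0.962 with Krt14. Over the 13 lens-series arrays the r of Krt19 with Krt5, Krt14 and Krt15 was 0.874 to 0.948, and with Krt8 and Krt18 it was 0.304 and 0.148. These values describe arrays that share their group, series and normalization, so they follow the group levels above and carry no test.

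**Figure D4:**
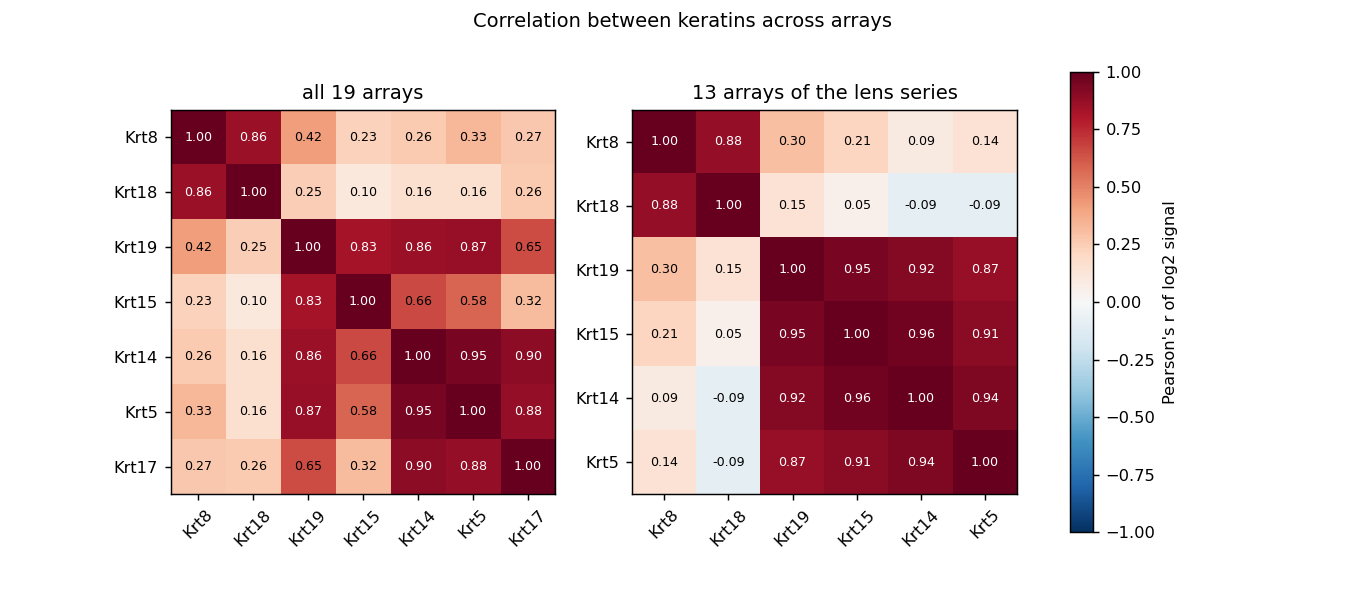
Pearson's r of log2 signal between each pair of the 7 keratins (both axes) over all 19 arrays (left) and over the 13 lens-series arrays (right; without Krt17, which had no measured signal there), with the colour bar from -1 to 1. Krt8 and Krt18 form a pair at 0.86 and 0.877, and Krt19 is closer to Krt5, Krt14 and Krt15 than to either.

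The genes with the most similar pattern over the 19 arrays, keratins aside, differed between the members. For Krt8 they were Npr3 (r = 0.967), a clearance receptor for natriuretic peptides, Has2 (0.917), a hyaluronan synthase, and Cdc14b (0.916), a phosphatase. For Krt18 they were Prc1 (0.934), Eme1 (0.918) and Cenpa (0.917), which act in cell division or DNA repair. For Krt19 they were Col5a1 (0.973), a collagen chain, Emp3 (0.955) and Bcl11b (0.953). Within the 13 lens-series arrays none of these 9 remained among the 3 most similar genes of its keratin, and for Krt8 the desmosome protein Dsp (0.987), C1qtnf4 (0.978) and Epcam (0.974) took their place.

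Among the basal keratins, Krt5 was closest to Ifitm1 (0.969), Lhx6 (0.964), a factor of dental mesenchyme, and Mtmr11 (0.963). Krt14 was closest to Kcnmb4os2 (0.963), Pcdhb21 (0.946) and Tmem100 (0.946). Krt17, measured in the tooth germ alone, was closest to Serpinb5 (0.981), an epithelial serpin, Pof1b (0.978) and the enamel protein gene Ambn (0.977). Krt15, which was not highest in the tooth germ, was closest to P3h3 (0.936), Anxa2 (0.925) and Myof (0.919). Within the lens-series arrays alone, none of the genes named here for Krt5, Krt14 and Krt15 stayed among the same number of closest genes. Krt17 had no measured signal there, so no such comparison is given for it. By Spearman's rank correlation over all arrays, P3h3 and Anxa2 stayed for Krt15. None of the genes named for Krt5, Krt14 and Krt17 did.

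Other keratins moved little in the lens. Of 41 further keratin genes 20 were tested, and at E10.5 none was called against the body. In the tooth germ 7 of 20 were called higher and none lower, where 16.6% of all genes were called higher. The 7 include Krt75, a keratin of hair follicles, which was tested through the tooth arrays alone. Its high tooth signal was thus a condition of its being tested, which raises the count of 7. It was 1.55 ± 0.15 higher there (SE). Krt80 and Krt42 were both 1.10 higher. Krt7, a further type II keratin of simple epithelia, also fell in the lens, with a difference of -1.30 ± 0.21 in the first step (SE, adjusted p = 0.00085, limma).

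Desmosomes are the junctions to which keratin filaments attach. Of 11 tested desmosome genes 2 were called above and 2 below the body in E10.5 lens, near the 13.5% and 19.1% of all genes. From E10.5 to E12.5, 4 were called lower and 1 higher, against 13.2% and 8.91% of all genes. In the tooth germ 9 were called higher, against 16.6% of all genes, and 1 lower, and the median there was 1.28. Dsp (desmoplakin), which ties keratin to the desmosome, was 1.66 ± 0.22 above the body at E10.5, fell by 3.69 ± 0.23 in the first step and was below the no-target level on all E12.5 arrays. Dsg2, a desmosomal cadherin, was at least 5.51-fold lower at E12.5 than at E10.5, the E12.5 arrays being below that level too. Pkp2 went the other way in lens, with mean levels of 8.57 at E10.5 and 10.03 at E12.5, against 6.71 in the body. In the tooth germ Dsp, Dsg2, Pkp1 and Perp were 2.28, 2.64, 2.54 and 2.37 higher than in the body. Pkp2 had a lower mean there (6.81) than in the tooth-series bodies (8.45).

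Genes of the hemidesmosome and basal attachment, where basal cells anchor keratin to the basement membrane, were tested for 7 of 10, of which Col17a1 and Lama3 passed the filter through the tooth arrays alone. The other 5 were all called higher in the tooth germ, against 16.6% of all genes. Col17a1, a transmembrane collagen of hemidesmosomes, was at least 5.04-fold higher in the tooth germ than in the body, where it was below the no-target level, as it was in lens. Itga3, an integrin subunit, was 2.28 ± 0.22 above the body in E10.5 lens, and Plec, the linker plectin, was 2.09 ± 0.15 above the body at E12.5.

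Of 13 tested transcription and splicing factors of keratin-rich epithelia, 4 were called higher and 5 lower in E10.5 lens, 1 higher and 5 lower from E10.5 to E12.5, and 7 higher and 1 lower in the tooth germ (all genes: 13.5% and 19.1%, 8.91% and 13.2%, 16.6% and 25.3%). Trp63, the regulator of basal keratinocytes, differed from the body by -1.20 ± 0.18 in E10.5 lens and by 2.68 ± 0.19 in the tooth germ. Tfap2a (AP-2 alpha), a factor of surface ectoderm, was 2.57 ± 0.16 above the body in E10.5 lens and fell by 1.33 ± 0.17 to E12.5. Esrp1, an epithelial splicing factor, was at least 7.75-fold lower at E11.5 than at E10.5, being below the no-target level on all E11.5 arrays. Klf4, a factor of differentiating epidermis, differed from the body by -2.63 ± 0.29 in E10.5 lens.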

How the data were processed

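Values are intensity values, 1 per probe set and array, deposited by the authors on a linear scale. Per the submitters' processing notes they were made with RMA, and affy 0.7 is listed with no role. Log2 was taken, with no further normalization, and every column of sample values was used. The platform annotation ties 34945 of the 45101 probe sets to a single gene, with symbols updated by Entrez ID through RefSeq (GRCm38.p6). A gene was tested where its main probe set exceeded 5.46 (the median of all log2 values) on 3 or more arrays. Tests were two-sided in limma 3.58.1 (R 4.3.3), with 1 mean per group over 19 arrays and Benjamini-Hochberg adjustment over 13320 genes, and were tested on simulated data. The precision is limited by the number of arrays.

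The members and lists were chosen with earlier results of these data known. Named genes are the 7 keratins, up to 4 called genes of each list with the largest difference, and the 3 genes most correlated with each keratin. Cdh1, Epcam, Pkp2, Bfsp1 and Grhl3, and values of listed genes in further comparisons, were chosen after their values were seen.

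Alternatives were another filter, the other probe sets, array weights, centring, a trended prior, only the groups compared, the replicate block, the spike-in set as a block or alone (the latter chosen after seeing the data) and leaving out each array. Deviations from group means of arrays with the same number correlated at 0.405 to 0.641 in the 3 pairs of E11.5 and E12.5 lens. In both of these groups replicate 1 is a high spike-in array and replicates 2 and 3 are low ones. A pairing by number and the shared spike-in set were therefore not told apart, and the replicate block is given only as an alternative. In all other comparisons at least 1 pair was at or under 0.1.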

Additional observations from a re-analysis of the deposited data

Results flagged for a closer look

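Differences of a keratin between conditions passed a test of the difference itself in 12 cases, given here as values on the log2 scale from the limma fit. The fall of Krt8 in the lens was smaller from E11.5 to E12.5 than from E10.5 to E11.5, by 2.10.

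The difference from the body was also set between lens and tooth germ. At E10.5 it was higher in lens by 1.15 for Krt8 and lower for Krt19 (-2.14), Krt5 (-4.97), Krt14 (-5.95) and Krt15 (-2.64). At E12.5 it was lower in lens for Krt8 (-3.22), Krt18 (-3.02), Krt19 (-2.23), Krt5 (-4.56), Krt14 (-5.43) and Krt15 (-2.56). Krt17 was left out because it had no measured signal outside the tooth germ. Lens and tooth were run in series that differ in the 3′ to 5′ gap of control probes, and the part of this in the differences was not tested.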

How the results depend on the processing

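Of 918 alternative values of the 48 called keratin differences, 894 kept their call and direction, 21 lost the call and 3 changed sign. These totals include Krt17, whose difference in the tooth germ was a condition of its being tested. The 3 came from the Krt14 probe set without measured signal in lens and lens-series bodies, which gave 0.14 and 0.024 for E11.5 and E12.5 lens against the body and 0.48 for the tooth-series against the lens-series bodies. The value of 0.48 was itself called (adjusted p = 0.013, limma). Of 29 uncalled differences, 20 are those of Krt19 and the basal keratins between lens stages, where 4 of 347 values were called (3 of Krt14 and 1 of Krt5). Of 159 values of the other 9, 4 gained a call and 6 changed sign, none of these called. The sign changes were Krt18 in E11.5 lens against the body (-0.058 to 0.18 without 1 array, the lowest without E11.5 replicate 2, and -0.27 within the high spike-in set), the second minus the first step of Krt18 (0.11 within the high set), and, between the bodies, Krt5 (0.048 with the spike-in block) and Krt8 (-0.19 with another probe set and -0.0055 with the mean of its sets). The calls of Krt17 between lens and body, counted here although neither side had a measured signal, were lost with the mean of its probe sets (adjusted p = 0.13, 0.15 and 0.31 at the 3 stages), within the high set at E11.5 (0.10) and E12.5 (0.24) and with centring at E12.5 (0.070, limma). The cause was not tested.

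Counts and medians in what follows include Krt17. With the stricter filter Krt17 was not tested, and the basal medians became -4.97 (E10.5 lens minus tooth), -4.56 (E12.5 lens minus tooth) and -1.39 (between the bodies). In fits of only the groups compared, 1 keratin was called in the first lens step (Krt8), 1 in the second (Krt18) and 0 in the comparison of the steps. Within the high spike-in set the basal median was -1.35 for E11.5 lens against the body and 0.69 for the first step, and the simple median of that step was -1.81. Within the low set the simple median was 0.98 for E10.5 lens against the body and -0.86 for the first step, with 1 keratin called in that step (Krt8) and 0 in the comparison of the steps. Leaving out each array gave 0 to 1 keratins in that comparison.

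With the replicate block, the calls of the 6 keratins other than Krt17 were as without it. This held for lens against the body at the 3 stages, in each lens step and in the tooth germ. Only between E11.5 and E12.5 lens did all 3 pairs of the same number correlate above 0.1, and these pairs also share their spike-in set.

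Over all genes, the first lens step called 568, but 56 with only the groups compared, 1802 with array weights, 207 to 311 without E10.5 replicate 2 or 1, 2069 within the high and 106 within the low spike-in set. The second called 861, but 139 with only the groups compared, 2125 with array weights and 442 without E12.5 replicate 3. The comparison of the steps called 60, but 5, 430, 145 with the spike-in block, 19 without E11.5 replicate 3 and 1044 within the high set. The whole lens course called 2946, but 1913 and 1478 within the high and low sets, and E10.5 lens against the body called 4345, but 2838 within the low set. Krt17 outside the tooth germ and Krt19 in lens lie at or under the signal of probe sets with no target, which limits what differences there can show.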

Other observations

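The intermediate filament genes that are not keratins took no single course in the lens. Of 15 listed, 14 were tested, 4 of them through body arrays alone and 1 through lens arrays alone, so no count of calls is given. Bfsp2, a beaded filament protein of lens fibres, rose by 1.37 ± 0.23 from E10.5 to E11.5 and by 2.08 ± 0.23 to E12.5 (SE, limma), over the same days in which Krt8 and Krt18 fell. Vim (vimentin) rose by 0.84 ± 0.13 from E10.5 to E12.5, and its difference from the body in the tooth germ was -1.20 ± 0.13. Lmnb1 and Lmnb2 went the other way in lens, from mean levels of 10.73 and 7.98 at E10.5 to 9.65 and 7.10 at E12.5. The neuronal filament genes Nefm, Nefl and Ina, which were tested through body arrays alone, were below the no-target level on every lens array. They were at least 80.6-fold, 66.9-fold and 24.2-fold lower in lens than in the body, given as a description with no test.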
